A study of Mus musculus with 20 samples.

Results

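The genes described here are 10 members of the Toll-like receptor system, the receptor genes Tlr1, Tlr2, Tlr3, Tlr4, Tlr6, Tlr7, Tlr8, Tlr9 and Tlr13 and the adaptor gene Myd88, taken by symbol from 22180 genes measured in mouse abdominal skin. Each of the 10 was read by 1 probe set. Arrays came from 20 animals in 4 groups of 5. The knockout mice (zfp36 fl/fl K14 cre, called KO below) carried floxed Zfp36 alleles and Cre recombinase driven by the K14 promoter, a promoter of basal keratinocytes, and their control littermates (zfp36 fl/fl) carried the same floxed alleles without Cre. In each genotype 5 animals received imiquimod on the skin and 5 a mock treatment for 5 consecutive days, and tissue was taken 4 hours after the last application. By design Zfp36 is left in cells that do not express Cre, but Zfp36 was not measured by cell type here. The sources used here do not give age, sex, strain or the make-up of the mock treatment.

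Toll-like receptors recognise molecules of microbes and nucleic acids that reach the wrong compartment. Tlr1, Tlr2, Tlr4 and Tlr6 sit at the cell surface, Tlr2 pairing with Tlr1 or Tlr6 to bind bacterial lipopeptides and Tlr4 binding lipopolysaccharide, whereas Tlr3, Tlr7, Tlr8, Tlr9 and Tlr13 bind nucleic acids in endosomes. All of the receptors here except Tlr3 signal through the adaptor MyD88 to IRAK kinases, TRAF6 and NF-kB, and Tlr3 uses the adaptor encoded by Ticam1. Imiquimod is a small-molecule agonist of Tlr7, and on mouse skin it produces an inflammation that resembles psoriasis. Zfp36 encodes tristetraprolin, which binds AU-rich elements of messenger RNAs, among them those of cytokines made after Toll-like receptor signalling, and promotes their decay.

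Imiquimod raised Tlr1, Tlr2, Tlr13 and Myd88 in both genotypes, and Tlr3 was lower after imiquimod in KO skin. The gene of the imiquimod receptor itself, Tlr7, did not pass the test in either genotype, and Tlr4, Tlr6, Tlr8 and Tlr9 did not pass either. No member passed between KO and control skin. Values are log2 probe set values as deposited, the log base being inferred from their range, and a value cannot be set against that of another probe set. Differences were tested with limma over all 22180 genes, with Benjamini-Hochberg adjusted p-values and a threshold of 0.05. In KO skin 4 of the 10 members rose and 1 fell, against 11.1% of all genes that rose and 9.71% that fell with imiquimod (20.8% in all). In control skin 4 rose and 0 fell, against 6.47% and 4.37% of all genes (10.8% in all). The members called are also those whose 5 imiquimod arrays and 5 mock arrays did not overlap, which held for 13.7% of all genes in KO skin and 8.35% in control skin. The median log2 difference of the 10 members was 0.29 in KO skin and 0.38 in control skin, and that of all genes was -0.0020 and -0.0040.

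The 20 arrays had medians between 4.94 and 5.04 and correlated between 0.953 and 0.988 within groups across 41345 probe sets. Precision was limited by the 5 arrays per group, and the median gene had a standard error of 0.11 for a treatment difference. Zfp36 lay between 5.47 and 7.41 in KO imiquimod arrays and between 7.68 and 8.40 in control imiquimod arrays, and between 3.47 and 7.12 in KO mock arrays and between 7.22 and 7.74 in control mock arrays. The genotypes therefore did not overlap in either treatment, although Zfp36 did not pass limma over all genes (adjusted p = 0.221 under imiquimod and 0.999 in mock skin). Of 10 keratinocyte genes listed as a check of the tissue 9 were measured, and their mean ran from 10.34 to 10.72 in KO imiquimod, 10.41 to 10.65 in control imiquimod, 9.83 to 9.98 in KO mock and 9.71 to 10.18 in control mock arrays. Hair follicle genes split the groups: their mean was 9.21 in KO imiquimod replicate 1 and 9.40 in control imiquimod replicate 5, against 5.26 to 7.45 in the other imiquimod arrays. It was 5.95 in KO mock replicate 3 and 5.97 in control mock replicate 5, against 7.93 to 10.34 in the other mock arrays. The member counts in KO skin (5) and in control skin (5, with Tlr8 added) without these 4 arrays are close to those with them. Of all 22180 genes 4723 were called in KO skin and 3583 in control skin without these arrays, against 4605 and 2404 with them. Whole skin was profiled, so more cells of a type and more RNA per cell cannot be told apart.

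The promoters of the 5 members that changed are shown because 4 of them moved together in both genotypes. Each window runs from 250 bases before to 50 bases after the gene start on the gene's own strand, from RefSeq on build GRCm38.p6, and capitals mark the motif matches found. Tlr13 has its window at chrX:106143025-106143324 on the plus strand, and the other windows lie on the minus strand, at chr5:64933509-64933808 for the first of the Tlr1 entries, chr3:83841559-83841858 for Tlr2, chr9:119339969-119340268 for Myd88 and chr8:45410331-45410630 for Tlr3.
Tlr13: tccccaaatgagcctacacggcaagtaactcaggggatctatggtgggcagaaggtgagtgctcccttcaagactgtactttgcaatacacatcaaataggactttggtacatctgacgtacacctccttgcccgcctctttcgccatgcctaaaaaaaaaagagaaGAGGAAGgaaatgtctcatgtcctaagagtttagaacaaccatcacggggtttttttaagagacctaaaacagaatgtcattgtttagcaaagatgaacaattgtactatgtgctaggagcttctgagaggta
Tlr1: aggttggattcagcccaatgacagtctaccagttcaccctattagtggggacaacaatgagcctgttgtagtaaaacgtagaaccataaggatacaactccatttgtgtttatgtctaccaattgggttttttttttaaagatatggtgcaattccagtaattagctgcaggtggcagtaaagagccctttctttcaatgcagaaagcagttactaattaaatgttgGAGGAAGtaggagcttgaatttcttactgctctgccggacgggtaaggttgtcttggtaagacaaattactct
Tlr2: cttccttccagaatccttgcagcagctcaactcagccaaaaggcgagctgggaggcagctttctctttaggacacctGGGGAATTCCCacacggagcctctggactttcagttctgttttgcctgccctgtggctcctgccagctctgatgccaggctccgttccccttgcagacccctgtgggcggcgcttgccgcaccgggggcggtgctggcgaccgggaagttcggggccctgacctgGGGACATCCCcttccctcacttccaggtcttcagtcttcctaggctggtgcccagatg
Myd88: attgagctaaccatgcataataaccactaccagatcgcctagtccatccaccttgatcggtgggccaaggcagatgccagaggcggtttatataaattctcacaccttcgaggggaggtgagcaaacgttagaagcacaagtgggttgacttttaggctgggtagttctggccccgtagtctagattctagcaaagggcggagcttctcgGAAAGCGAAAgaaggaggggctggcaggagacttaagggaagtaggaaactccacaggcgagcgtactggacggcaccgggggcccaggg
Tlr3: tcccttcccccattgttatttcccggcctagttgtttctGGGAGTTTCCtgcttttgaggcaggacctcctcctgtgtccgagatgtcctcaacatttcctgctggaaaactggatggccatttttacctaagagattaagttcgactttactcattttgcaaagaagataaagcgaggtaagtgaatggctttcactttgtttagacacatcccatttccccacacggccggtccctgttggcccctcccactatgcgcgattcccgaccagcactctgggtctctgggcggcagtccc

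Of the 10 members 8 had promoter entries, 10 windows in all, and both strands were searched for 4 motifs in them and in 32851 promoters of the same length. The core GAGGAAG, typical of the myeloid factor PU.1, was found in 3 of the 10 windows, against 13.6% of all promoters. These were the windows of Tlr13 (at -83 from the gene start), the first Tlr1 entry (at -23) and Tlr9 (at -112 and, on the opposite strand, at 11). The core of the interferon-stimulated response element, which is GAAA, 2 bases of any kind and GAAA, occurred in Myd88 (at -40) and as 2 overlapping matches on the opposite strand in a Tlr6 window, against 3.44% of all promoters. The NF-kB consensus had 3 matches in Tlr2, of which 2 overlap, and 1 match in Tlr3, against 8.46% of all promoters. The AP-1 motif TGANTCA was found in the Tlr9 window and in 7.81% of all promoters. The second Tlr1 window, the second Tlr6 window and the Tlr8 window had 0 matches of the 4 motifs. A match of letters is a description of the sequence and not a measured binding site.

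Tlr13, an endosomal receptor for bacterial ribosomal RNA that mice have and humans lack, had the largest difference among the members with imiquimod. Its 5 log2 values were 5.74, 6.08, 5.13, 6.33 and 5.20 in KO imiquimod skin, against 4.06, 4.34, 4.61, 4.27 and 4.50 in KO mock skin. Every imiquimod array lay above every mock array, by a mean of 1.34 on the log2 scale or 2.53-fold (± 0.20, SE, n = 5 per group, 95% interval 0.93 to 1.75, limma adjusted p = 5.35e-05). In control skin Tlr13 read 5.43, 5.09, 5.41, 4.87 and 4.82 with imiquimod, against 4.06, 4.01, 4.45, 4.44 and 4.31 with mock. Those groups did not overlap either, and the rise was 1.83-fold (log2 difference 0.87 ± 0.20, SE, n = 5 per group, limma adjusted p = 0.00564).

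Tlr1 and Tlr2, which pair to bind triacylated lipopeptides, rose in KO and in control skin. Tlr1 stood at 5.86, 6.29, 5.96, 6.16 and 5.38 in KO imiquimod arrays, against 4.98, 4.97, 5.32, 5.14 and 5.31 in KO mock arrays. The lowest imiquimod array, replicate 5, exceeded the highest mock array by less than the spread within either group, and the mean rise was 1.72-fold (log2 difference 0.79 ± 0.15, SE, n = 5 per group, limma adjusted p = 0.000585). In control arrays Tlr1 was 6.12, 5.94, 5.81, 5.62 and 5.59 with imiquimod, against 5.03, 4.97, 4.92, 5.09 and 5.39 with mock, a 1.67-fold rise (limma adjusted p = 0.00192).

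Tlr2 measured 6.01, 6.39, 6.0, 6.96 and 6.0 in KO imiquimod skin, against 5.56, 5.91, 5.85, 5.72 and 5.64 in KO mock skin. Replicate 4 stood highest in the KO imiquimod group, and the rise was 1.45-fold (log2 difference 0.54 ± 0.16, SE, n = 5 per group, limma adjusted p = 0.0201). In control skin its values were 6.15, 6.39, 6.10, 6.06 and 5.87 with imiquimod, against 5.40, 5.27, 5.82, 5.50 and 5.77 with mock, 1.48-fold higher (limma adjusted p = 0.0264). These Tlr2 calls were lost in 5 of 33 other settings in KO skin and in 8 of 33 in control skin, more than those of any other called member. The call in KO skin was lost without KO imiquimod replicate 2 or 4 (limma adjusted p = 0.051 and 0.0531) and with only the groups of the contrast in the fit (0.0505). The call in control skin was lost without control imiquimod replicate 1, 2 or 3 (limma adjusted p = 0.056, 0.08 and 0.0541) or control mock replicate 1, 2 or 4 (0.0658, 0.0732 and 0.0558).

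Tlr6, the other partner of Tlr2, binds diacylated lipopeptides with it and lies beside Tlr1 on chromosome 5. Its values ran from 4.40 to 5.52 in KO imiquimod arrays and from 4.20 to 4.53 in KO mock arrays, and the log2 difference of 0.41 did not pass (95% interval 0.06 to 0.77, limma adjusted p = 0.0931). In control skin the ranges were 4.16 to 4.70 with imiquimod and 3.96 to 4.63 with mock, a log2 difference of 0.18 (limma adjusted p = 0.591). Tlr4 likewise overlapped between treatments, from 5.60 to 6.12 in KO imiquimod and 5.36 to 6.0 in KO mock arrays, and from 5.47 to 6.11 in control imiquimod and 5.25 to 6.0 in control mock arrays. Its log2 differences were 0.17 in KO and 0.25 in control skin (limma adjusted p = 0.529 and 0.39).

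Myd88, the adaptor that carries the signal of all of these receptors except Tlr3 and of the interleukin-1 receptor family, rose in both genotypes. It had log2 values of 7.86, 8.35, 8.15, 8.55 and 8.10 in KO imiquimod skin, against 7.09, 7.39, 7.17, 7.17 and 7.21 in KO mock skin. The lowest imiquimod array was well clear of the highest mock array, and the rise was 1.99-fold (log2 difference 0.996 ± 0.13, SE, n = 5 per group, limma adjusted p = 1.93e-05). In control skin Myd88 was 7.85, 8.20, 7.96, 7.70 and 7.51 with imiquimod, against 6.99, 6.97, 7.36, 6.96 and 7.34 with mock, a 1.65-fold rise (log2 difference 0.72 ± 0.13, SE, n = 5 per group, limma adjusted p = 0.00101).

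**Figure D1:**
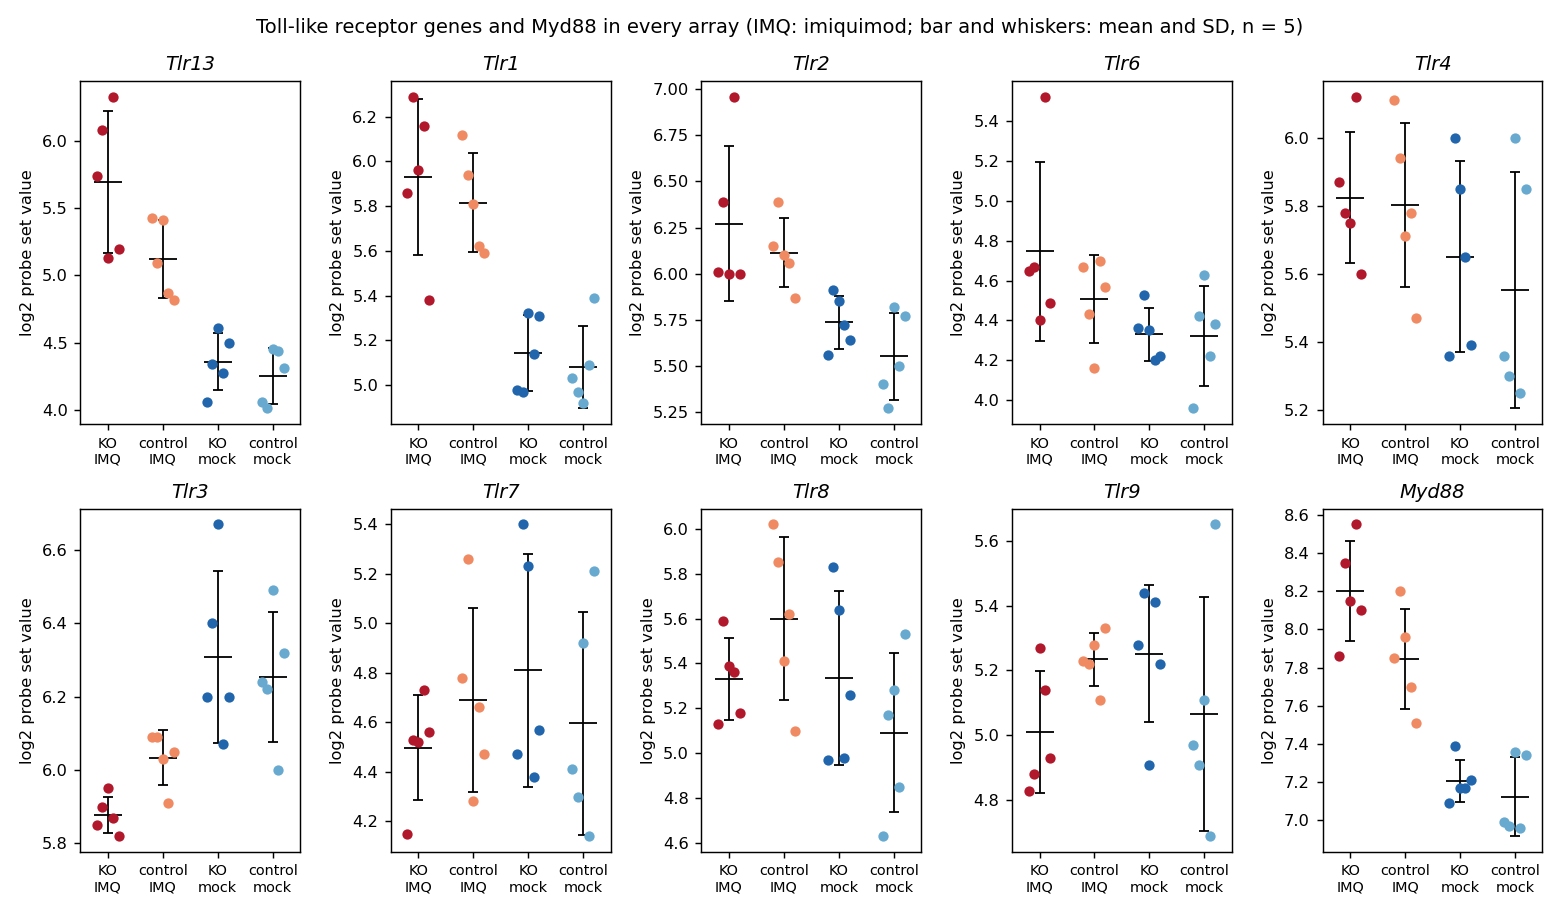
Log2 probe set values of the 10 members in each of the 20 arrays, in KO imiquimod, control imiquimod, KO mock and control mock skin, with the mean and SD of the 5 arrays of a group; each panel has its own axis, which does not start at 0. Tlr13, Tlr1, Tlr2 and Myd88 stand higher in both imiquimod groups than in the mock group of the same genotype without overlap, Tlr3 is below its mock group in KO skin, and the remaining members overlap.

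Tlr3, the receptor for double-stranded RNA and the member that does not use MyD88, was the only member that passed the test as lower after imiquimod, and only in KO skin. In KO skin it was 5.85, 5.90, 5.95, 5.87 and 5.82 with imiquimod, against 6.20, 6.40, 6.67, 6.07 and 6.20 with mock. The imiquimod arrays lay close together below all mock arrays, 1.35-fold lower on average (log2 difference -0.43 ± 0.099, SE, n = 5 per group, limma adjusted p = 0.00378). Control skin had 6.09, 6.09, 6.03, 5.91 and 6.05 with imiquimod, against 6.24, 6.22, 6.49, 6.0 and 6.32 with mock. Those groups overlapped and the log2 difference of -0.22 did not pass (95% interval -0.43 to -0.013, limma adjusted p = 0.178). The difference between the responses of the genotypes was -0.21 (limma adjusted p = 0.837), so a fall in KO skin alone is not shown.

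Tlr7, the receptor that imiquimod activates, varied widely within groups, with SDs of 0.21 to 0.47 around group means of 4.50 to 4.81. Its values were 4.15, 4.53, 4.52, 4.73 and 4.56 in KO imiquimod skin, against 4.47, 5.40, 5.23, 4.38 and 4.57 in KO mock skin. In control skin they were 4.78, 5.26, 4.28, 4.66 and 4.47 with imiquimod, against 4.41, 4.30, 4.92, 4.14 and 5.21 with mock. High values thus occurred in KO mock replicates 2 and 3, control mock replicate 5 and control imiquimod replicate 2, and the groups overlapped widely. The log2 differences were -0.31 in KO skin (95% interval -0.78 to 0.16, limma adjusted p = 0.394) and 0.094 in control skin (-0.38 to 0.56, adjusted p = 0.87). The intervals leave room for a change of Tlr7 in either direction in control skin. The Tlr7 probe set was dim, with a mean of 4.65 over the 20 arrays, below the lowest array median of 4.94, and 34.8% of genes were dimmer. As values of different probe sets cannot be set against each other, this rank is only a rough guide to dimness. The probe sets of Tlr6 (4.48) and Tlr13 (4.86) also averaged below that median, and Tlr13 was called in both genotypes. Signal over background is unknown, so a missing call says little about the receptor.

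Tlr8, which lies next to Tlr7 on the X chromosome and in humans senses single-stranded RNA, read 5.13, 5.59, 5.39, 5.36 and 5.18 in KO imiquimod arrays, against 4.97, 5.83, 5.64, 4.98 and 5.26 in KO mock arrays. The log2 difference was -0.006 with a 95% interval of -0.41 to 0.40 (limma adjusted p = 0.991). In control arrays Tlr8 was 6.02, 5.85, 5.41, 5.62 and 5.10 with imiquimod, against 4.63, 5.17, 5.28, 4.85 and 5.53 with mock. Imiquimod replicate 5 was the lowest and mock replicate 5 the highest of the control groups, which overlapped, and the log2 difference of 0.51 did not pass (limma adjusted p = 0.105). It did pass without control imiquimod replicate 5 (limma adjusted p = 0.0337), without control mock replicate 5 (0.0436), and at 0.74 without the 4 arrays that stood apart in hair genes (0.00978), which were left out only after the data had been seen. Tlr9, the receptor for unmethylated CpG DNA, ran from 4.83 to 5.27 in KO imiquimod and 4.91 to 5.44 in KO mock arrays, and from 5.11 to 5.33 in control imiquimod and 4.69 to 5.65 in control mock arrays. Its log2 differences were -0.24 in KO and 0.17 in control skin (limma adjusted p = 0.261 and 0.541).

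Both nucleic acid receptors of the X-linked pair and Tlr3 varied beside the hair follicle genes. The highest Tlr7 values of mock skin came from KO replicates 2 and 3 and control replicates 5 and 3, whose hair means were 7.93, 5.95, 5.97 and 9.35, against 9.89 to 10.34 in the other mock arrays. Tlr7 was lowest among imiquimod arrays in KO replicate 1, which had a hair mean of 9.21. Other imiquimod arrays went the other way. Control replicate 5, with a hair mean of 9.40, had Tlr7 at 4.47, above the 4.28 of control replicate 3, whose hair mean was 5.26. KO imiquimod replicate 4, with a hair mean of 7.45, had the highest Tlr7 of its group (4.73). With the hair list as a covariate the log2 difference of Tlr7 with imiquimod was -0.63 in KO skin, which passed limma (adjusted p = 0.0175), and -0.33 in control skin, which did not (0.375). With the same covariate Tlr3 passed in control skin as well (log2 difference -0.35, limma adjusted p = 0.0488), and Tlr2 passed in neither genotype (0.43 in KO and 0.41 in control skin, adjusted p = 0.0711 and 0.172). The hair list itself had 0 of 20 genes called in either genotype, with medians of -2.27 in KO and -3.05 in control skin. Without the array of each group that differed most in hair genes the Tlr7 difference in KO skin was -0.12 (limma adjusted p = 0.785), so the covariate and the left-out arrays moved it in opposite directions. In control skin it was 0.30 without those arrays (limma adjusted p = 0.429), and Tlr4 was 0.41 there (adjusted p = 0.129). The part of hair follicle content in these values was not tested further.

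**Figure D2:**
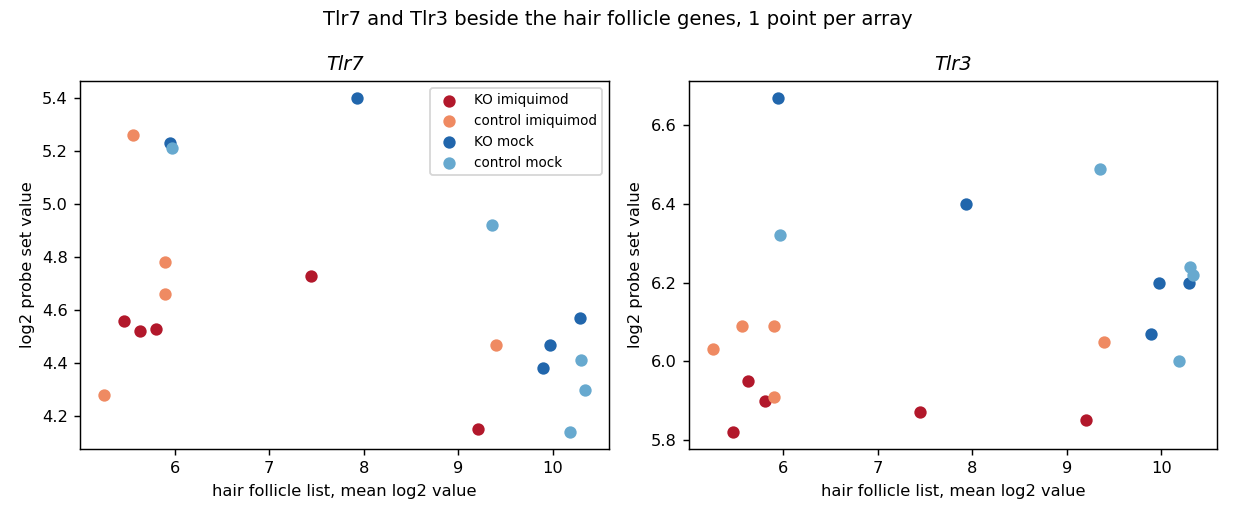
Log2 values of Tlr7 and Tlr3 (vertical axes) against the mean log2 value of the hair follicle list (horizontal axis) in the 20 arrays, coloured by group. The mock arrays with the highest Tlr7, KO replicates 2 and 3 and control replicates 5 and 3, have the lowest hair means of the mock arrays, and the same 4 arrays have the highest Tlr3 of the mock arrays.

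The comparison of KO with control skin asks whether loss of Zfp36 in keratinocytes altered these genes. Under imiquimod Tlr13 averaged 5.70 ± 0.53 in KO skin and 5.12 ± 0.29 in control skin (SD, n = 5 each), a log2 difference of 0.57 with a 95% interval of 0.16 to 0.98. Myd88 averaged 8.20 ± 0.26 in KO skin and 7.84 ± 0.26 in control skin (SD, n = 5 each), a difference of 0.36 with an interval of 0.081 to 0.64. Neither passed in limma over all genes (adjusted p = 0.272 and 0.321). That makes 0 of 10 members called, against 0.546% of all genes, and 2 of 10, Tlr13 and Myd88, at an unadjusted p under 0.05, against 10% of all genes. The values of both genotypes overlapped for every member, whereas they did not for 2.47% of all genes, and the other 8 differences lay between -0.27 for Tlr8 and 0.24 for Tlr6. Under all 33 other settings the difference stayed positive, between 0.41 and 0.71 for Tlr13 and between 0.27 and 0.45 for Myd88, without passing.

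In mock skin the KO and control groups overlapped for all 10 members, and did not for 0.41% of all genes. Differences ran from 0.01 for Tlr6 to 0.24 for Tlr8, all positive, with limma adjusted p = 0.999 for each member and 0.00902% of all genes called. At an unadjusted p under 0.05 there were 0 members and 3.19% of all genes. For Tlr7 the 95% interval of the difference was -0.26 to 0.68 in mock skin and -0.66 to 0.28 under imiquimod.

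The response to imiquimod was then compared between the genotypes as the difference of their log2 differences. No member passed in limma, against 0.018% of all genes, and at an unadjusted p under 0.05 there were 0 members and 6.75% of all genes. The largest estimates were 0.47 for Tlr13 (95% interval -0.11 to 1.05, limma adjusted p = 0.808), -0.51 for Tlr8 (-1.09 to 0.059, adjusted p = 0.768) and -0.41 for Tlr9 (-0.82 to 0.0032, adjusted p = 0.736). A larger rise of Tlr13 or Myd88 in KO skin is therefore not shown, and for Myd88 the estimate was 0.28 (limma adjusted p = 0.841).

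**Figure D3:**
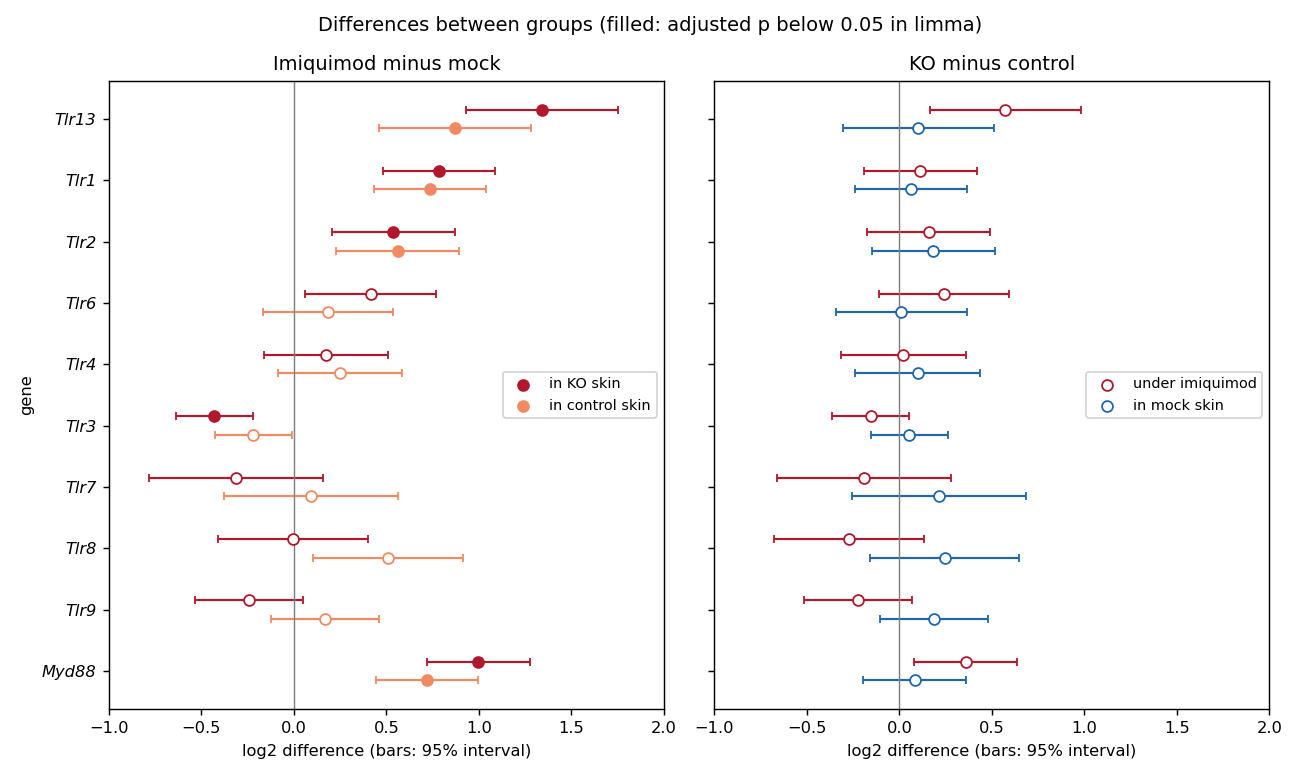
Log2 differences of the 10 members with 95% intervals, imiquimod minus mock (left, in KO and in control skin) and KO minus control (right, under imiquimod and in mock skin); filled points passed limma over all genes. Tlr13, Tlr1, Tlr2 and Myd88 are filled in both genotypes on the left, Tlr3 in KO skin, and no point is filled on the right.

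The rest of the pathway was read from 51 listed genes, of which 45 were measured. With imiquimod 13 rose and 4 fell in KO skin, with a median log2 difference of 0.014, and 7 rose and 2 fell in control skin, with a median of 0.074. Of all genes 11.1% rose and 9.71% fell in KO skin and 6.47% rose and 4.37% fell in control skin, so the falls among the 45 stand near the share of all genes. None passed between the genotypes or in the difference of responses in limma, and at an unadjusted p under 0.05 there were 12 under imiquimod, 1 in mock skin and 6 in the difference of responses, against 10%, 3.19% and 6.75% of all genes.

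Co-receptors of Tlr4 were among the largest rises. Cd14, which hands lipopolysaccharide and lipopeptides to Tlr4 and Tlr2, read 6.51, 6.65, 5.94, 8.69 and 6.30 in KO imiquimod skin, against 4.99, 5.54, 6.33, 5.42 and 5.17 in KO mock skin. Replicate 4 stood far above the other arrays, the groups overlapped, and the log2 difference was 1.33 (limma adjusted p = 0.0163). Without that replicate it was 0.86 (limma adjusted p = 0.0272). The call was lost when only the groups of the contrast were fitted (limma adjusted p = 0.0567) and with the macrophage list as a covariate (log2 difference 1.02, adjusted p = 0.0584). In control skin the Cd14 difference was 0.25 (limma adjusted p = 0.781), and the difference between KO and control imiquimod skin was 1.13 and did not pass (adjusted p = 0.264). Ly96, which encodes MD-2, the lipopolysaccharide-binding partner of Tlr4, rose in both genotypes. Its values were 5.99, 7.35, 7.01, 6.79 and 6.93 in KO imiquimod arrays, against 5.58, 5.79, 5.90, 5.74 and 5.49 in KO mock arrays, a log2 difference of 1.11 (limma adjusted p = 0.000715). In control skin the difference was 1.22 (limma adjusted p = 0.000547). Of the 10 co-receptors and chaperones 3 rose and 0 fell in KO skin, and 1 rose and 1 fell in control skin. The chaperone gene Cnpy4 was the one that fell there (log2 difference -0.71, limma adjusted p = 0.0437), and that call was lost in 17 of 33 other settings, with values of -0.13 and -0.042 under the hair and the macrophage covariate and -1.07 without the 4 arrays that stood apart in hair genes (limma adjusted p = 2.77e-05). Leaving out control imiquimod replicate 1, 2, 3 or 4 or control mock replicate 1, 2, 3 or 4 gave limma adjusted p-values from 0.0871 to 0.107, and leaving out KO imiquimod replicate 2, 3 or 5 from 0.0512 to 0.052. The chaperone gene Hsp90b1 was the other of the 3 that rose in KO skin (log2 difference 0.31, limma adjusted p = 0.00799). Its difference in control skin was 0.11 (limma adjusted p = 0.452).

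Among 5 adaptors with or recruited through TIR domains, 2 rose in KO and 1 in control skin. Pik3ap1, which links Toll-like receptors to phosphoinositide 3-kinase, was the adaptor with the largest rise in both (log2 difference 0.98 in KO and 1.01 in control skin, limma adjusted p = 0.00242 and 0.00342). With the macrophage list as a covariate its difference in control skin was 0.40 and did not pass (limma adjusted p = 0.252). Tirap, the bridge between Tlr2 or Tlr4 and MyD88, rose in KO skin by 0.39 (limma adjusted p = 0.0291) and had a difference of -0.24 in control skin (adjusted p = 0.269). The difference between those responses was 0.63 and did not pass over all genes (limma adjusted p = 0.476). Tirap, Traf6, Hsp90b1, Ikbke, Irak2, Map3k8, Tbk1, Tnip1, Socs1 and the comparison of Irak3 between genotypes were picked out after their values were seen.

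Kinases and ubiquitin ligases had 5 of 14 measured members higher and 2 lower in KO skin, and 4 higher and 0 lower in control skin. Traf6, the ubiquitin ligase below MyD88 and the IRAK kinases, was 7.44, 7.91, 8.0, 7.96 and 8.11 in KO imiquimod arrays, against 7.20, 7.20, 7.36, 6.88 and 7.25 in KO mock arrays. The groups did not overlap and the log2 difference was 0.71 (limma adjusted p = 0.000259). In control skin it was 0.77 (limma adjusted p = 0.000178). The kinase genes Ikbke, Map3k8 and Tbk1 also rose in both genotypes, by 0.69, 0.39 and 0.24 in KO skin and by 0.54, 0.69 and 0.24 in control skin, and Irak2 rose in KO skin by 0.50 (limma adjusted p = 0.00436). In control skin the Irak2 difference was 0.33, which did not pass (limma adjusted p = 0.0815). The ligase gene Peli2 and the kinase adaptor gene Tab2 fell in KO skin by 0.40 and 0.33 on the log2 scale (limma adjusted p = 0.0224 and 0.00471). In control skin their differences were -0.19 and -0.094 and did not pass (limma adjusted p = 0.39 and 0.549). The Peli2 call was lost without KO imiquimod replicate 1 or 3 (limma adjusted p = 0.0515 and 0.0617) or KO mock replicate 2 or 3 (0.0595 and 0.0648), and without the 4 arrays that stood apart in hair genes, where the log2 difference was -0.31 (0.126).

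Inhibitors of the pathway had 3 of 9 higher and 1 lower in KO skin and 1 higher and 1 lower in control skin. Irak3, a kinase-like protein that holds back signalling from MyD88, showed the largest rise of the pathway in control skin. There it was 8.30, 8.39, 8.34, 8.15 and 7.93 with imiquimod, against 6.67, 6.75, 7.37, 6.93 and 7.22 with mock, a log2 difference of 1.23 (limma adjusted p = 1.2e-06). In KO skin it was 7.92, 8.26, 8.15, 8.11 and 8.08 with imiquimod, against 7.26, 7.48, 7.71, 7.47 and 7.29 with mock, a difference of 0.66 (limma adjusted p = 0.000809). The imiquimod groups reached similar levels, and the KO mock arrays stood higher than most control mock arrays, by 0.45. Neither that difference nor the difference of responses, -0.57, passed over all genes (limma adjusted p = 0.999 and 0.581). The other inhibitor genes that rose were Tnip1 and Socs1, in KO skin (log2 difference 0.59 and 0.30, limma adjusted p = 0.00363 and 0.0162). In control skin they differed by 0.27 and 0.074 without passing (limma adjusted p = 0.247 and 0.689). The ubiquitin ligase gene Rnf216 fell by 0.25 in KO and by 0.28 in control skin (limma adjusted p = 0.046 and 0.0382). In control skin that call was lost in 14 of 33 other settings, among them without control imiquimod replicate 1, 2 or 3 and without any of the 5 control mock replicates (limma adjusted p from 0.0507 to 0.123). Of the other Toll-like receptors Tlr11 fell by 0.42 in KO skin (limma adjusted p = 0.00695) and Tlr5 and Tlr12 did not pass, and of 4 interferon regulatory factors 0 passed in either genotype. The Tlr11 difference in control skin was -0.22 and did not pass (limma adjusted p = 0.208).

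**Figure D4:**
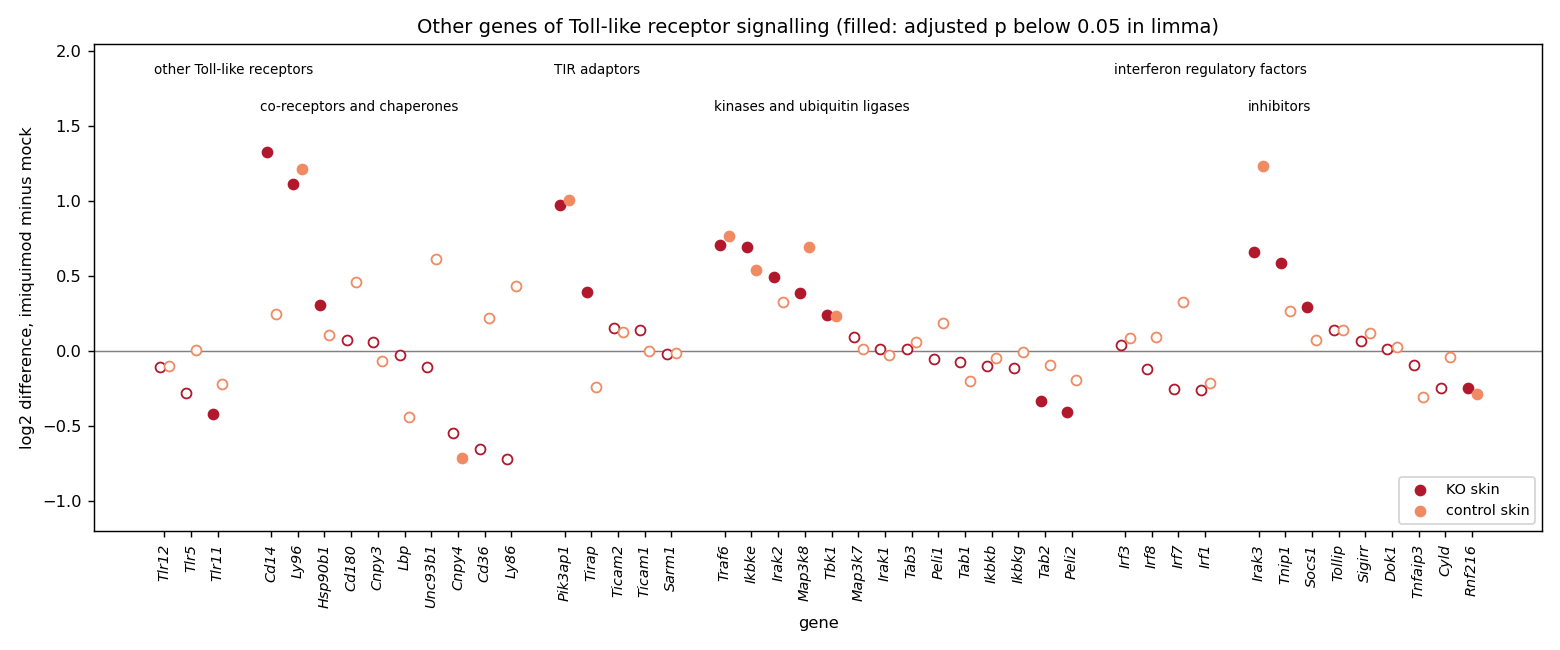
Log2 differences (imiquimod minus mock) of the 45 other measured genes of Toll-like receptor signalling, in KO skin and in control skin, grouped by role; filled points passed limma over all genes. Cd14, Pik3ap1, Traf6 and Irak3 head their groups in KO skin, Ly96 heads the co-receptors in control skin, and most of the 45 genes are unfilled.

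Toll-like receptors of skin are expressed by resident and incoming myeloid cells as well as by keratinocytes, and some marker lists differed between the groups too. Their counts stand against 11.1% of all genes that rose and 9.71% that fell in KO skin, and 6.47% and 4.37% in control skin. Of 10 neutrophil markers 7 rose in KO skin and 4 in control skin, and their mean log2 value ran from 6.79 to 8.48 in KO imiquimod, 5.59 to 6.70 in control imiquimod, 4.75 to 5.22 in KO mock and 4.67 to 4.87 in control mock arrays. Of 7 inflammatory monocyte markers 2 rose in KO skin and 1 in control skin, with array means of 5.58 to 6.89 in KO imiquimod, 5.22 to 5.76 in control imiquimod, 5.24 to 5.70 in KO mock and 5.01 to 5.58 in control mock arrays. Macrophage markers had 3 of 12 higher and 1 lower in KO skin and 5 higher and 1 lower in control skin, with array means of 7.30 to 7.73, 7.20 to 7.94, 6.80 to 7.53 and 6.54 to 7.47 in the same order of groups. Plasmacytoid dendritic cell markers, the list of a cell type rich in Tlr7 and Tlr9, had 1 of 8 higher and 1 lower in KO skin and 1 higher in control skin. Single markers called in a list are near the share of all genes. Of 10 measured dendritic and Langerhans cell markers 4 fell in KO skin and 0 in control skin. Lists of the tissue's other cells fell in part. T and NK cell markers had 2 of 8 lower in KO skin, endothelium markers 1 of 6 and mast cell markers 1 of 8. In control skin 0 markers of these lists were lower. Fibroblast markers had 4 of 8 lower in KO skin and 5 of 8 in control skin, adipocyte markers 5 of 6 and 1 of 6, and skeletal muscle markers 6 of 8 lower and 1 higher in KO skin and 0 lower and 1 higher in control skin. Keratinocyte markers had 4 of 9 higher in each genotype. In the difference of responses 0 markers of these lists passed limma, against 0.018% of all genes, so responses that differ between the genotypes are not shown. Between KO and control skin under imiquimod 2 neutrophil markers and 1 inflammatory monocyte marker were higher and 1 skeletal muscle marker was lower. The other lists named here had 0 called in that comparison, against 0.546% of all genes. Apart from the macrophage covariate, which itself moved with treatment, the part of these cell types in the members' differences was not tested.

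Several members followed marker lists across arrays within groups. To measure this, each array's deviation from its group mean was correlated over the 20 arrays for 80 pairs of a member and an immune list, with p-values from 100000 permutations within groups. Tlr8 followed the macrophage list most closely (Pearson r = 0.913, Spearman rho = 0.875, permutation p = 1e-05, the smallest they can give, adjusted p = 0.0008), and r was 0.899 without the 2 arrays farthest from the median of the list. Tlr8 also had r = 0.787 with endothelium, 0.732 with the plasmacytoid and 0.723 with the dendritic and Langerhans cell list. With keratinocytes its r was 0.642 and with hair follicles -0.703. Tlr7 followed the plasmacytoid dendritic cell list (r = 0.862, rho = 0.783, permutation p = 0.00022, adjusted p = 0.00747, r = 0.789 without the 2 farthest arrays) and the macrophage list (r = 0.798, rho = 0.737, permutation p = 0.00056, adjusted p = 0.00747, r = 0.724). It also followed the T and NK cell list (r = 0.781, rho = 0.674, permutation p = 0.00053, adjusted p = 0.00747, r = 0.678) and the dendritic and Langerhans cell list (r = 0.701, rho = 0.701, permutation p = 0.00409, adjusted p = 0.0142, r = 0.638). As a description, r was 0.77 with the endothelium list, 0.742 with fibroblasts, 0.733 with skeletal muscle and -0.675 with hair follicles, so these values set no single cell type apart for Tlr7. The plasmacytoid list held Siglech, Ccr9, Tcf4, Bst2, Klk1, Pacsin1, Cox6a2 and Spib, and how far it tracks that cell type in skin was not tested. Tlr9 had r = 0.375 with that list (permutation, adjusted p = 0.289). The muscle list averaged 8.45 in KO imiquimod, 9.31 in control imiquimod, 9.23 in KO mock and 9.19 in control mock skin.

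Tlr1, Tlr2 and Tlr13 followed the inflammatory monocyte list. For Tlr2 r was 0.83 (rho 0.818, permutation p = 0.00044, adjusted p = 0.00747, and r = 0.719 without the 2 farthest arrays). For Tlr1 r was 0.815 (rho 0.702, permutation p = 0.00028, adjusted p = 0.00747, and r = 0.774). For Tlr13 r was 0.818 (rho 0.794, permutation p = 0.00146, adjusted p = 0.00827, and r = 0.697), and Tlr13 had r = 0.729 with the neutrophil list (rho 0.6, permutation p = 0.00078, adjusted p = 0.00756, and r = 0.626). Without the array of each group that differed most in hair genes, 16 arrays, r was 0.86 for Tlr8 and macrophages, 0.832 and 0.715 for Tlr7 with plasmacytoid dendritic cells and macrophages, and 0.801, 0.761 and 0.868 for Tlr2, Tlr1 and Tlr13 with monocytes. Tlr4 had r = 0.765 with the macrophage and 0.752 with the plasmacytoid dendritic cell list (permutation, adjusted p = 0.00827 for both). Myd88 had r = 0.686 with the inflammatory monocyte and 0.617 with the macrophage list (permutation, adjusted p = 0.0142 and 0.0183). For the dendritic and Langerhans cell, plasmacytoid dendritic cell and mast cell lists its r was 0.645, 0.636 and 0.631 (permutation, adjusted p = 0.0142, 0.00827 and 0.0134). As a description, its r with keratinocytes was 0.531. Members thus followed several lists, and the cell types behind these relations were not tested. The lists share arrays, so these relations are not independent of each other.

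With the macrophage list as a covariate further endosomal receptors passed as lower relative to the list. The list itself moved with treatment: its genes had a median log2 difference of 0.187 in KO and 0.597 in control skin. Of its 12 genes 10 had a positive difference in KO and 11 in control skin. Without the covariate the Tlr7 differences were -0.31 and 0.094, and neither passed. A fall of a receptor apart from the rise of the list was not tested. Relative to that list Tlr7 was lower after imiquimod in both genotypes (log2 difference -0.67 in KO and -0.61 in control skin, limma adjusted p = 0.00302 and 0.0444), and Tlr3 was lower in both (-0.54 and -0.43, adjusted p = 0.000252 and 0.0193). Tlr8 was lower in KO skin (-0.35, limma adjusted p = 0.0132) and did not pass in control skin (-0.18, adjusted p = 0.457). In KO skin the rises of Tlr13, Tlr1 and Myd88 still passed (1.23, 0.65 and 0.84, limma adjusted p = 0.000163, 0.00185 and 3.1e-05) and that of Tlr2 did not (0.38, adjusted p = 0.082). In control skin the differences of Tlr13, Tlr1, Myd88 and Tlr2 were 0.64, 0.47, 0.42 and 0.25 and none of the 4 passed (limma adjusted p = 0.117, 0.0957, 0.08 and 0.496).

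**Figure D5:**
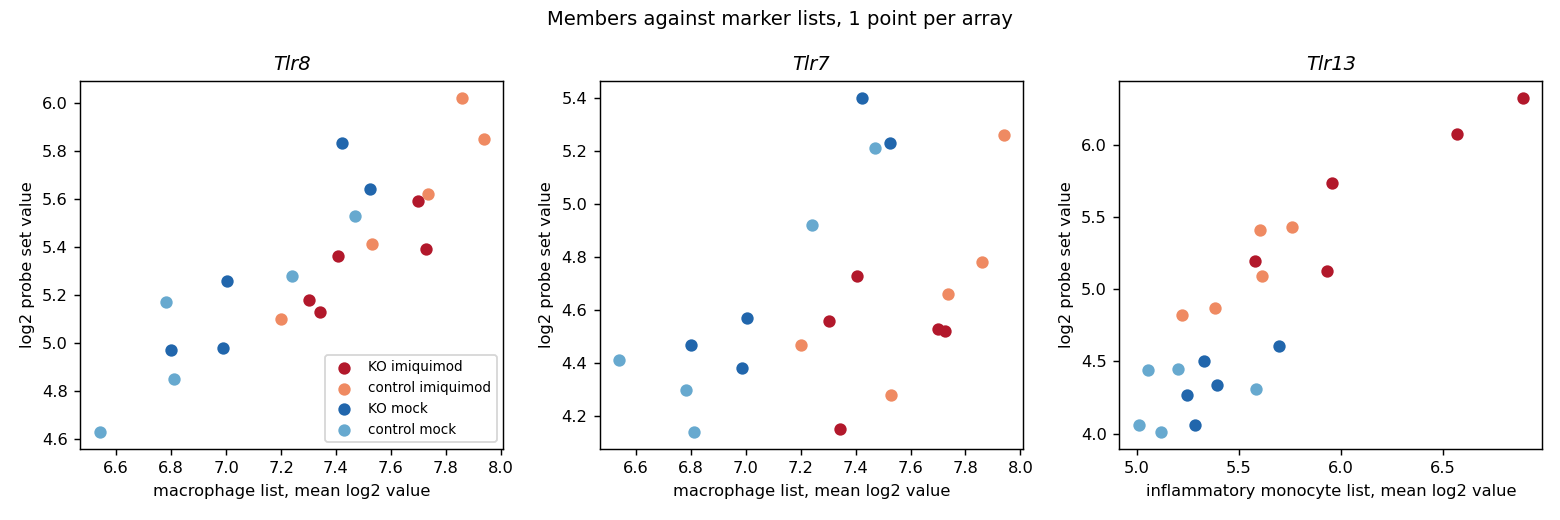
Log2 values of Tlr8 and Tlr7 against the mean of the macrophage list, and of Tlr13 against the mean of the inflammatory monocyte list, 1 point for each of the 20 arrays, coloured by group. Tlr8 climbs with the macrophage list in all groups, the 4 mock arrays with the highest macrophage means lie above all KO imiquimod arrays in Tlr7, and Tlr13 is highest in the KO imiquimod arrays with the highest monocyte means.

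Among the 45 pairs of members Tlr2 and Myd88 deviated together most closely (r = 0.857, rho = 0.849, permutation p = 3e-05, adjusted p = 0.00135 over the pairs, r = 0.827 without the 2 farthest arrays). The X-linked neighbours Tlr7 and Tlr8 followed each other (r = 0.803, rho = 0.786, permutation p = 0.0008, adjusted p = 0.0072, r = 0.721), whereas the neighbours Tlr1 and Tlr6 had r = 0.179 (rho = -0.056, permutation p = 0.584, adjusted p = 0.597). Tlr1 and Tlr13 had r = 0.681 (rho = 0.675, permutation p = 0.00857, adjusted p = 0.0297, r = 0.562).

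The genes most like each member over the 20 arrays were found by Pearson correlation of log2 values, which treatment differences enter. For Tlr13 they were Cd274, the gene of the checkpoint ligand PD-L1 (r = 0.958), Ripk3, a kinase of necroptosis (0.953), Capn2, Pla2g4d and Aprt. Fcgr4, an Fc receptor of myeloid cells (0.942), the integrin gene Itgam (0.929) and Pik3ap1 (0.929) stood nearest to Tlr1, followed by Mrps7 and Pik3r5. Tlr2 was nearest to Efhd2 (0.944), Igsf6, Lcp2, Hcls1 and Adam8. Myd88 was nearest to Pglyrp3, a bactericidal peptidoglycan recognition protein gene of epithelia (0.975), Pld2, Eif6, the basal keratin gene Krt14 (0.963) and Slc2a1. Tlr3 was nearest to Npr2 (0.924), Serinc1, Slc24a3, Spon2 and Daglb. Tlr8 was nearest to Elmo1 (0.899), to Unc93b1, which encodes the chaperone that carries endosomal Toll-like receptors out of the endoplasmic reticulum (0.893), and to Cysltr1, Ctss and Pld4. Tlr7 had lower correlations, led by Il6ra (0.897), Nck1, Selenow, Pgm5 and Zfp652, Tlr6 was nearest to Tslp (0.852) and Cd14 (0.844), Tlr4 to Wdr91 (0.88) and Tlr9 to Gbp5 (0.791). When deviations from group means were correlated instead, Tlr2 was nearest to Fxyd5 (0.96) and Adam8 (0.928), Tlr8 to Arhgap26 (0.914), Tlr7 to the muscle calcium pump gene Atp2a1 (0.933), Tlr13 to Bbs4 (0.867) and Myd88 to Sh3bp2 (0.894).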

How the data were processed

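The authors deposited 1 table of log2 values for 41345 probe sets on 20 Affymetrix mouse arrays. The log base is inferred from the range of values (1.41 to 13.33), and the sources used here do not give the normalization or software. RNA was isolated with Trizol and RNeasy and labelled with the WT PLUS kit, per the labels' protocols. No detection calls were used, so signal over background is unknown.

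Probe sets were named through a platform table: 23521 had 1 symbol, 1814 more than 1, and 16010 were not listed. The brightest probe set with 1 symbol stood for a gene, which gave 22180 genes. Arrays were fitted with limma 3.58.1 under R 4.3.3 (lmFit, eBayes), 1 mean per group over 20 arrays and 5 contrasts, two-sided, with Benjamini-Hochberg adjustment and a threshold of 0.05. Folds were computed from log2 differences. The fit was run on simulated data with independent normal noise for each gene. Such data lack swings shared by many genes across arrays, which the hair genes show here. Labels call the arrays of a group separate animals.

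All 10 members are named. Of the pathway lists, the 3 largest rises and 3 largest falls past the threshold per contrast are named. For likeness the 5 nearest genes were taken, leaving out provisional symbols. Members and lists were chosen with earlier results of these data known. Alternatives changed the groups fitted, the replicate block, the prior variance, array weights, scaling, the choice of probe sets, a filter on the dimmest 30% of genes, covariates (hair or macrophage list) and single arrays. A further alternative, chosen after the data had been seen, left out the 4 arrays that stood apart from their groups in hair genes.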

Additional observations from a re-analysis of the deposited data

Results flagged for a closer look

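In 1 of 40 groups of 5 arrays tested over the members, a value stood apart from the rest. Tlr6 in KO imiquimod replicate 4 was 5.52, against 4.40 to 4.67 in the other 4 arrays, so the gap to the nearest was 0.759 of the whole range (critical value 0.71). Chance gives such a gap in about 1 in 20 groups. The same array was the highest of its group in Tlr2 (6.96), Tlr13 (6.33), Myd88 (8.55) and Cd14 (8.69), and in the means of the neutrophil list (8.48) and the inflammatory monocyte list (6.89). Without it the log2 difference of Tlr6 with imiquimod in KO skin was 0.22 (limma adjusted p = 0.27), and the part of those cells in the Tlr6 value was not tested.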

How the results depend on the processing

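The number of members called stayed between 4 and 6 in KO skin and between 2 and 5 in control skin over 33 alternatives, and at 0 for both comparisons of genotype and for the difference of responses in limma. Of all genes 3654 to 5478 were called in KO skin and 1619 to 3697 in control skin, against 4605 and 2404 in the main fit. Only the member count in control skin moved by more than 1.5 times, to 2 (Tlr3 and Tlr7), with the macrophage list as a covariate. With that covariate 2416 of all genes were called in control skin and 5478 in KO skin. Leaving out 1 array gave 4 to 5 members in KO skin and 3 to 5 in control skin. All genes called were then 3654 to 4952 and 1619 to 2989. The number of arrays limited what could be detected, and signal over background is unknown here.

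Directions turned where differences were small or a covariate was added, and the cause was not tested. With the macrophage list as a covariate they became -0.064 for Tlr4 in KO skin, -0.22, -0.61 and -0.18 for Tlr4, Tlr7 and Tlr8 in control skin, -0.0052, -0.0011, -0.025 and -0.026 for Tlr1, Tlr3, Tlr4 and Tlr6 between genotypes in mock skin, and 0.13 and 0.15 for the responses of Tlr2 and Tlr4. With the hair list as a covariate they were -0.33 for Tlr7 in control skin and 0.012 for the response of Tlr2. For Tlr8 in KO skin array weights gave 0.059, quantile normalization 0.036, median centring 0.03 and leaving out the hair-discordant arrays 0.12. For Tlr4 between genotypes under imiquimod, array weights gave -0.044 and leaving out those arrays -0.073, which also gave -0.02 for Tlr3 between genotypes in mock skin and -0.023 for the response of Tlr1. Leaving out 1 array gave -0.098 to 0.12 for Tlr8 in KO skin, -0.049 to 0.25 for Tlr7 in control skin, -0.014 to 0.23 and -0.061 to 0.099 for Tlr2 and Tlr4 between genotypes under imiquimod, -0.037 to 0.11 and -0.081 to 0.087 for Tlr3 and Tlr6 between genotypes in mock skin, and -0.04 to 0.19, -0.198 to 0.045 and -0.19 to 0.012 for the responses of Tlr1, Tlr2 and Tlr4. Median centring also ended the call of Peli2 in KO skin (adjusted p = 0.0501) and array weights added Tlr8 in control skin (0.69, adjusted p = 0.0104).

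Same-numbered arrays of KO imiquimod and KO mock skin had deviations that correlated between -0.309 and 0.387, and those of control skin between -0.709 and -0.199. Between KO and control skin the range was -0.41 to 0.31 under imiquimod and -0.628 to 0.426 in mock skin. No steady pairing by replicate number was seen. The arrays that stood apart in hair genes enter these values, so they cannot settle whether the numbers mark pairs. With the replicate block the members called were 5 in KO and 4 in control skin, as without it. All genes called with the block were 4230 and 2036, against 4605 and 2404. Over all genes, KO against control under imiquimod gave 121 genes, 17 with only those groups, 78 with the replicate block, 242 with array weights, 67 with every probe set, 336 and 223 with the hair and macrophage covariates, 54 without the hair-discordant arrays and 45 to 174 without 1 array. In control skin array weights gave 3697 genes, against 2404. In mock skin the 2 genes called became 0 with only those groups and up to 7 with every probe set, and the 4 of the difference of responses up to 13 with the hair covariate. The alternative with only the groups of a contrast gives no value for the difference of responses.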
